A study of Mus musculus with 21 samples.

Results

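The 40 genes described here encode the enzymes that build nucleotides from small precursors, the salvage enzymes that recycle bases and nucleosides, and the folate enzymes that supply one-carbon units. They were found by gene symbol among the 54532 genes of the deposited expression table, and all 40 were present. By role they fall into 6 lists, with 10 genes of pyrimidine de novo synthesis, 7 of pyrimidine salvage, 5 of the diphosphate steps that purines and pyrimidines share, 11 of purine de novo synthesis, 2 of purine salvage and 5 of the folate one-carbon cycle.

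The study set 4 IDH1 mutant lines (PIC144-1, PIC144-3, PIC496-3 and PIC496-4) against 3 IDH1 WT lines (PC134-0, PC308-1 and PC326-1). All 7 are mouse glioma stem-like cultures that the submitters grew out from brain tumours of genetically engineered mice, and no treatment was given. All were kept as floating cells in neural stem cell medium with EGF, bFGF and heparin at low oxygen, and messenger RNA of 3 libraries per line, labelled as biological replicates, was sequenced (21 libraries). The labels name neither the IDH1 mutation, the engineered alleles that the lines share, nor whether PIC144-1 and PIC144-3, or PIC496-3 and PIC496-4, came from 1 animal. IDH1 encodes the cytosolic isocitrate dehydrogenase, and its tumour mutants turn 2-oxoglutarate into 2-hydroxyglutarate.

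Each line has 1 genotype and therefore counted as 1 replicate, valued at the mean FPKM of its 3 libraries (fragments scaled to gene length and library size, a level that allows genes to be set side by side). Libraries held 15011668 to 21966351 fragments assigned to genes. Marker lists set beside the labels summed to 1599 to 2826 FPKM in IDH1 mutant lines and 1750 to 2378 FPKM in IDH1 WT lines for glioma stem-like identity, whereas microglial and macrophage markers summed to at most 0.248 FPKM in IDH1 mutant and 0.279 FPKM in IDH1 WT lines. Of the 10 glioma stem-like markers, Gfap had only 0.0612 to 0.186 FPKM in IDH1 mutant and 0.0802 to 0.112 FPKM in IDH1 WT lines. Endothelial markers summed to at most 0.369 FPKM in IDH1 mutant and 0.844 FPKM in IDH1 WT lines. Fibroblast and pericyte markers summed to 1.11 to 15.3 FPKM in IDH1 mutant lines, highest in PIC144-1, and to 0.462 to 1.58 FPKM in IDH1 WT lines. In cultures such as these, fewer cells of a kind and less RNA per cell cannot be told apart.

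As background, cells make purines stepwise on ribose phosphate, from PRPP synthetase (Prps1, Prps2) and the committing amidotransferase Ppat through Gart, Pfas, Paics, Adsl and Atic to inosine monophosphate, which Impdh1, Impdh2 and Gmps turn into guanine nucleotides. Pyrimidines are built as a free ring by Cad, Dhodh and Umps, after which Ctps and Ctps2 make CTP and Tyms makes thymidylate with a folate carrier as the carbon donor. Serine is the main source of these one-carbon units, through Shmt1 and Mthfd1 in the cytosol and Shmt2, Mthfd2 and Mthfd1l in mitochondria. Dhodh sits in the inner mitochondrial membrane and is a drug target that has been studied in gliomas with mutant IDH1, and proliferating cells in general keep these pathways active. None of this background was measured here beyond messenger RNA.

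The first comparison asked how the 40 genes differ between genotypes. It was run with limma on log2(FPKM + 0.5) of line means over the 13379 genes that reached 0.5 FPKM in at least 3 lines, with Benjamini-Hochberg adjustment over all of them at 0.05. All 40 genes passed this filter on low values. None of the 40 was called, where 16 of 13379 genes (0.120%) were called in all, 3 of them higher (0.0224%) and 13 lower (0.0972%) in IDH1 mutant lines. The 13 include the Y-linked genes Ddx3y, Eif2s3y and Kdm5d (log2 differences of -4.61, -4.28 and -3.14), so expression from the Y chromosome differed between genotypes. The part of this in the X-linked members Ctps2, Prps1, Prps2 and Hprt was not tested. Adjusted p-values of the 40 ran from 0.274 to 0.995. At an unadjusted p under 0.05, 5 of the 40 were higher in IDH1 mutant lines and 0 were lower, where 6.09% of all tested genes were higher and 6.70% lower, and limma voom on the recovered fragments also called 0 of the 40, with 4 under an unadjusted 0.05.

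Most of the 40 nonetheless lay on the positive side. The difference was above 0 for 34 of 40 genes (85%), with a median log2 difference of 0.37, beside 50.8% and a median of 0.00717 over all tested genes. All 11 genes of purine de novo synthesis were positive, with a median of 0.39, as were the 5 folate genes (median 0.54) and the 2 purine salvage genes (median 0.46). Of pyrimidine de novo genes 7 of 10 were positive (median 0.18), of pyrimidine salvage genes 5 of 7 (median 0.46) and of the shared diphosphate steps 4 of 5 (median 0.16). Without PIC496-4 the median was 0.21 for the 40, 0.22 for purine de novo, 0.31 for folate and 0.08 for pyrimidine de novo genes. Without PIC144-3 it was 0.21 for pyrimidine salvage genes, and without PC326-1 it was 0.28 for the shared steps. These counts describe genes that vary together across the same 7 lines and carry no test of their own.

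**Figure D1:**
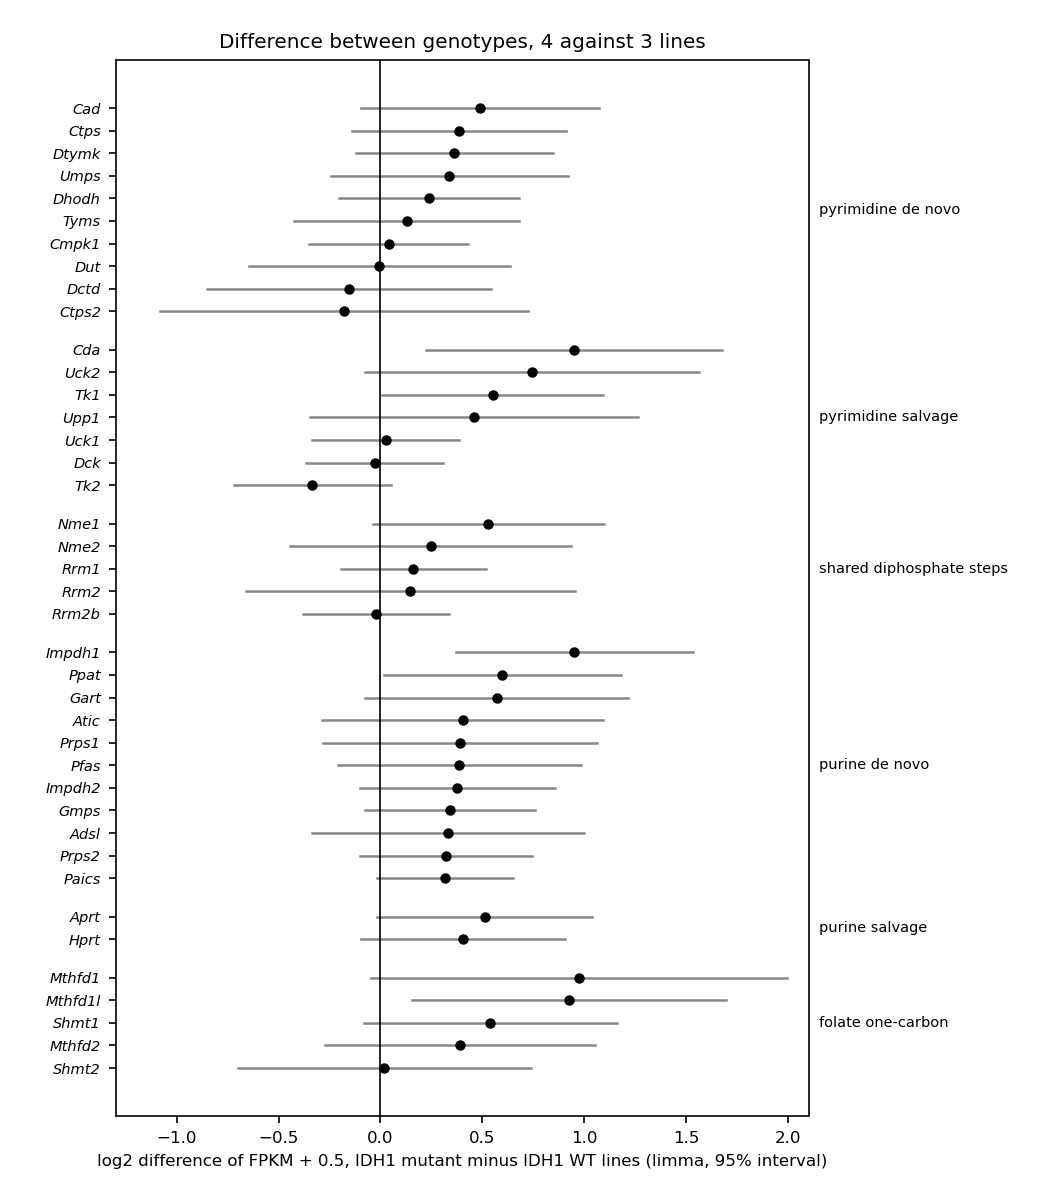
Difference between genotypes for each of the 40 genes, as log2(FPKM + 0.5) of IDH1 mutant minus IDH1 WT lines (4 against 3 lines) on the horizontal axis. Points are limma estimates and lines their 95% intervals, grouped by role from top to bottom, and 34 of 40 points lie right of 0 while none passed adjustment.

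Line values did not overlap between genotypes for 7 of the 40. Cda, Ppat, Paics, Impdh1, Aprt and Shmt1 were higher in each IDH1 mutant line than in each IDH1 WT line (6 of 40, where 6.82% of all tested genes did this), and Tk2 was lower in each IDH1 mutant line (1 of 40, against 6.43% of all tested genes). For Cda this rests on 1 library of PIC144-1, at 1.34 FPKM beside 0.446 and 0.476. Its 95% counting intervals overlapped, at 0.536 to 1.03 FPKM in PIC144-1 and 0.428 to 0.883 FPKM in PC326-1. Those of Aprt and Tk2 in PIC144-3 and PC134-0 also overlapped. So did those of Ppat and Shmt1 in PIC144-3 and PC326-1, and of Shmt1 in PIC496-3 and PC326-1. With 4 against 3 lines there are 35 ways to split them, so that an exact permutation test (two-sided) can reach 0.0286 at the lowest, and the 12 genes given a test below had permutation p-values of 0.0571 to 0.371.

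In the purine de novo list the widest difference was that of Impdh1, inosine monophosphate dehydrogenase, which makes the rate-limiting step towards guanine nucleotides (chr6:29200434-29216364, minus strand, GRCm38). Impdh1 was measured at 23.9, 20.7 and 21.3 FPKM in the 3 libraries of PIC144-1, 12.3, 9.62 and 12.8 in PIC144-3, 15.3, 14.3 and 14.9 in PIC496-3 and 25.2, 20.5 and 25.3 in PIC496-4. Impdh1 in the IDH1 WT lines had 9.68, 7.80 and 9.11 FPKM in PC134-0, 9.15, 10.1 and 8.52 in PC308-1 and 8.02, 8.47 and 7.68 in PC326-1. PIC144-1 and PIC496-4 were the highest, 1 library of PIC144-3 lay among the IDH1 WT libraries, and line means did not overlap between genotypes. Impdh1 averaged 18.0 ± 5.75 FPKM in IDH1 mutant (SD, n = 4 lines) and 8.72 ± 0.606 FPKM in IDH1 WT (SD, n = 3 lines). Its log2 difference (IDH1 mutant minus IDH1 WT of FPKM + 0.5, as for each genotype difference given here) was 0.95 (SE 0.251), or 1.93-fold with a 95% interval of 1.29 to 2.90, with a limma p of 0.00569 that became 0.274 after adjustment. Over the other fits its adjusted p ran from 0.0228 to 0.835. It was under 0.05 only in fits that count the libraries of a line as partly separate.

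Ppat encodes the amidotransferase that commits PRPP to purines (chr5:76913249-76951578, minus strand). Ppat was measured at 16.3, 17.5 and 19.3 FPKM in the 3 libraries of PIC144-1, 12.6, 12.6 and 13.0 in PIC144-3, 15.02, 15.7 and 14.2 in PIC496-3 and 28.1, 28.7 and 27.0 in PIC496-4. Ppat in the IDH1 WT lines had 11.3, 10.5 and 11.2 FPKM in PC134-0, 11.8, 11.1 and 11.5 in PC308-1 and 11.9, 10.6 and 13.1 in PC326-1. PIC496-4 stood above all other lines, while PIC144-3 was the IDH1 mutant line nearest to the IDH1 WT lines. Averaged over lines, Ppat was measured at 18.3 ± 6.70 FPKM in IDH1 mutant (SD, n = 4 lines) and 11.4 ± 0.432 FPKM in IDH1 WT (SD, n = 3 lines). The difference of Ppat was 0.60 (SE 0.250), or 1.51-fold with a 95% interval of 1.01 to 2.26, with a limma p of 0.0454 that became 0.381 after adjustment. Without PIC496-4 the log2 difference of Ppat was 0.38.

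Paics, which carries out successive steps of the purine ring, had the highest level of the list (chr5:76951307-76967509, plus strand). Paics was measured at 80.4, 80.8 and 82.4 FPKM in the 3 libraries of PIC144-1, 87.9, 86.6 and 83.8 in PIC144-3, 79.8, 81.0 and 79.1 in PIC496-3 and 105, 116 and 104 in PIC496-4. Paics in the IDH1 WT lines had 63.2, 71.6 and 71.5 FPKM in PC134-0, 67.6, 74.8 and 70.2 in PC308-1 and 73.7, 70.5 and 73.4 in PC326-1. PIC496-4 was again the highest, and the IDH1 WT lines were the 3 lowest. Adsl, adenylosuccinate lyase, had the lowest mean of the list. Adsl was measured at 11.5, 11.4 and 12.3 FPKM in the 3 libraries of PIC144-1, 6.35, 7.42 and 7.40 in PIC144-3, 10.5, 10.4 and 9.72 in PIC496-3 and 18.5, 18.1 and 16.9 in PIC496-4. Adsl in the IDH1 WT lines had 8.36, 8.86 and 8.204 FPKM in PC134-0, 9.69, 10.5 and 11.1 in PC308-1 and 7.23, 7.04 and 8.15 in PC326-1. For Adsl the genotypes overlapped, with PIC144-3 below each IDH1 WT line.

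The other purine genes were also highest in PIC496-4. Gart, one protein with several enzyme activities of the pathway, is typical of them. Gart averaged 19.9, 13.4, 16.6 and 32.8 FPKM in PIC144-1, PIC144-3, PIC496-3 and PIC496-4, against 12.5, 13.7 and 12.8 FPKM in IDH1 WT PC134-0, PC308-1 and PC326-1. PIC496-4 held more than each other line, PIC144-3 lay inside the IDH1 WT range, and 19.7% of the exon bases of Gart are overlapped on the opposite strand by Gm15964. Atic, which closes the purine ring, was different in that both PIC144-1 and PIC496-4 stood high. Atic averaged 25.4, 11.5, 13.8 and 25.8 FPKM in PIC144-1, PIC144-3, PIC496-3 and PIC496-4, against 13.5, 13.6 and 13.4 FPKM in IDH1 WT PC134-0, PC308-1 and PC326-1. Prps1 did likewise, with 45.1 FPKM in PIC144-1 and 56.5 FPKM in PIC496-4, and 24.98 to 31.6 FPKM in IDH1 WT lines. Its paralog Prps2 ran from 10.4 to 17.3 FPKM in IDH1 mutant lines and from 9.44 to 11.5 FPKM in IDH1 WT lines. Both PRPP synthetase genes thus overlapped between genotypes. Pfas, the amidotransferase in mid-pathway, covered 8.97 to 19.2 FPKM in IDH1 mutant lines and 9.73 to 10.7 FPKM in IDH1 WT lines. Gmps, GMP synthetase, covered 13.8 to 22.3 FPKM in IDH1 mutant and 12.4 to 14.7 FPKM in IDH1 WT lines.

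Impdh2, the second inosine monophosphate dehydrogenase, was more abundant per length than Impdh1 in each line. Impdh2 averaged 47.9, 53.6, 52.9 and 83.2 FPKM in PIC144-1, PIC144-3, PIC496-3 and PIC496-4, against 40.7, 43.4 and 49.9 FPKM in IDH1 WT PC134-0, PC308-1 and PC326-1. PIC496-4 was far above the rest, which lay between PC134-0 and PIC144-3. The value of Impdh2 is uncertain because 39.3% of its 50-base stretches also occur at other loci, most at the pseudogene Impdh2-ps, which is itself listed at 38.4, 42.3, 44.6 and 70.3 FPKM in PIC144-1, PIC144-3, PIC496-3 and PIC496-4 and at 32.4 in PC134-0, 32.5 in PC308-1 and 41.1 in PC326-1. Prps1 shares 9.93% of its 50-base stretches, most with Prps1l3, which ran from 15.7 to 34.5 FPKM in IDH1 mutant and from 8.13 to 24.3 FPKM in IDH1 WT lines.

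**Figure D2:**
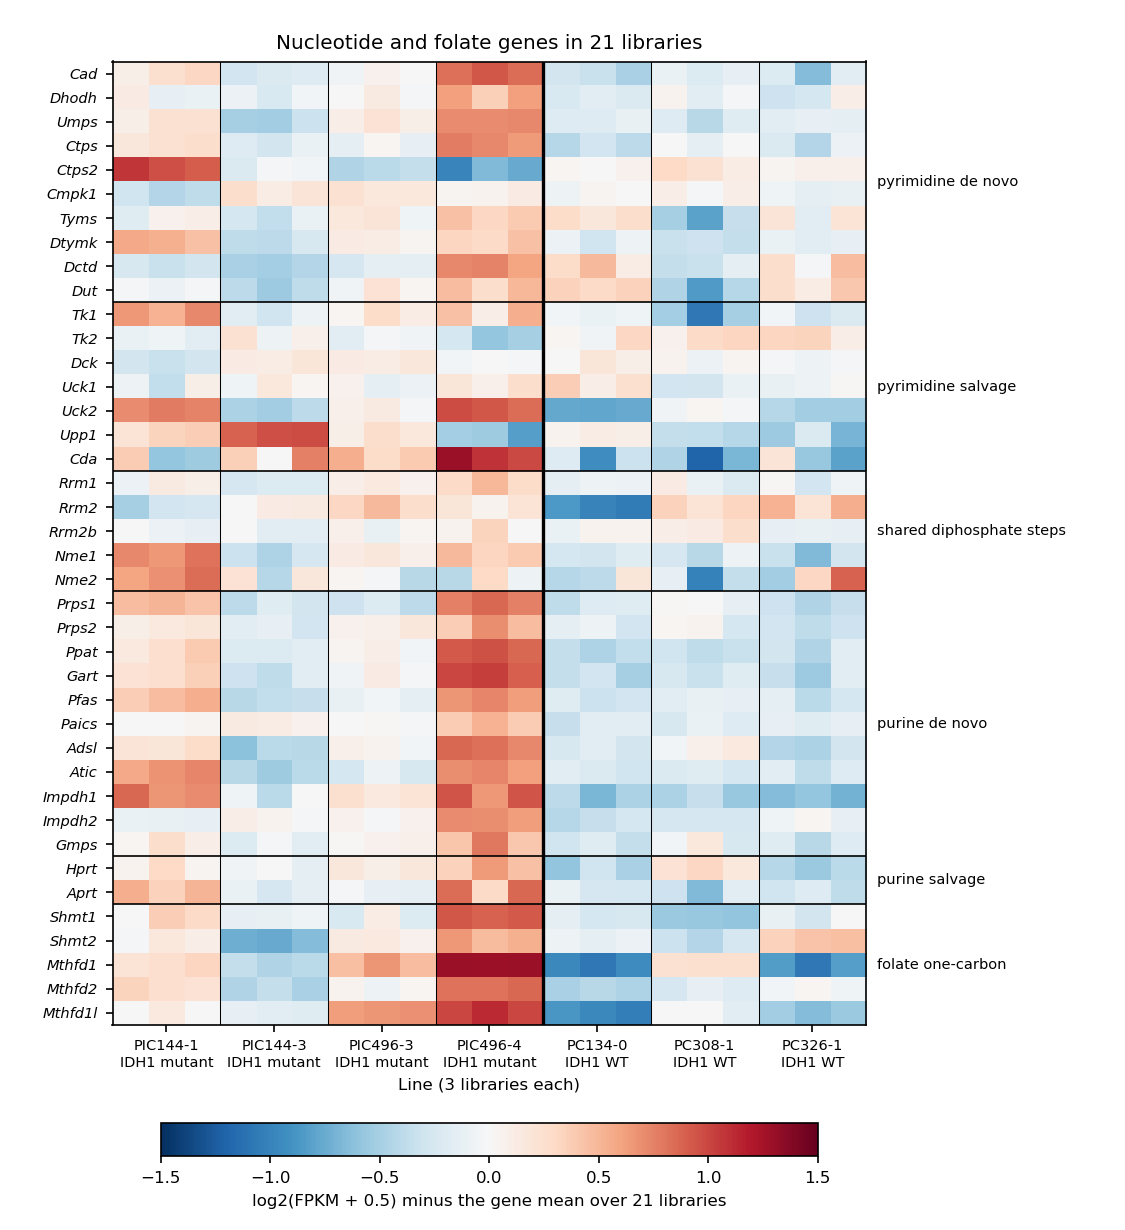
Log2(FPKM + 0.5) of the 40 genes in each of the 21 libraries, with the gene's mean over all libraries subtracted (colour), genes down the page by role and libraries across, 3 per line, IDH1 mutant lines left of the bold line and IDH1 WT lines right of it. The 3 libraries of PIC496-4 are red for all purine de novo, purine salvage and folate genes, while Ctps2, Tk2 and Upp1 are blue there.

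Ppat and Paics lie head to head on chromosome 5. In GRCm38 the Paics transcript starts at 76951307 on the plus strand and the Ppat transcript at 76951578 on the minus strand, so their first 272 bases overlap on opposite strands, and overlaps of this kind cover 6.15% of the exon bases of Ppat and 8.67% of those of Paics. Whether strand was used in counting is not given in the sources used here, and for these bases alone reads could be split either way. Across the 7 lines the levels of the pair had a Pearson r of 0.91, a description over lines that share their libraries.

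Because most purine and folate genes varied together across lines, their promoters (250 bases before to 50 after each start, RefSeq, GRCm38.p6) were searched on both strands for letters bound by known regulators of growth and cell cycle genes. RefSeq promoters were matched by symbol for 37 of the 40 genes, and Dhodh, Pfas and Rrm2b were not among them. The E-box CACGTG, which MYC and related factors bind, was in 6 of 37 promoters (16.2%), beside 8.09% of the 27025 genes of the promoter table. For E2F only the exact letters TTTGGCGC and TTTCGCGC were searched, so other forms of its site were not counted. They were in 0 of 37 (0.929% of all genes), and the ATF4 letters TGATGCAA were in 0 of 37 (1.03% of all genes). CCAAT, the NF-Y box, was in 14 of 37 (37.8%, against 41.1% of all genes), and TTTGAA, the core of the cell cycle homology region, in 5 of 37 (13.5%, against 20.2% of all genes). No test was run on these shares, and a match in these letters is not a bound site. The 6 genes with an E-box are shown in stretches of 30 bases, the E-box in capitals, to let the surroundings be compared. The stretch of Paics overlaps an exon of Ppat, and those of Impdh2 and Atic overlap exons of the gene itself. The Nme1 stretch that starts at 93968273 overlaps exons of Nme1 and of Gm20390. All 7 are written 5′ to 3′ on the strand named.
Paics, chr5:76951087-76951116, plus strand: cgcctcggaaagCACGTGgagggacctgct
Atic, chr1:71557126-71557155, plus strand: gaggaggggcgggacctcggggtCACGTGg
Impdh2, chr9:108560314-108560343, plus strand: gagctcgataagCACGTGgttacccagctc
Dtymk, chr1:93802065-93802094, minus strand: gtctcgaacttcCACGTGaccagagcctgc
Tyms, chr5:30073669-30073698, minus strand: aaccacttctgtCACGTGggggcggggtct
Nme1, chr11:93968037-93968066, minus strand: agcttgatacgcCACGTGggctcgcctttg
Nme1, chr11:93968273-93968302, minus strand: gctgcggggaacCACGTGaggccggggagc
Of the 7 E-boxes, 2 belong to Nme1, at different start regions of the table. Of these genes, 3 make purines (Paics, Atic and Impdh2), 2 make thymidine nucleotides (Dtymk and Tyms) and 1 is a diphosphate kinase.

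Purine salvage returns free bases to nucleotides through Hprt, for hypoxanthine and guanine, and Aprt, for adenine. Aprt was measured at 68.5, 60.0 and 67.2 FPKM in the 3 libraries of PIC144-1, 43.8, 39.4 and 42.4 in PIC144-3, 46.2, 42.9 and 42.8 in PIC496-3 and 84.3, 57.4 and 85.4 in PIC496-4. Aprt in the IDH1 WT lines had 43.9, 39.2 and 39.0 FPKM in PC134-0, 37.6, 29.5 and 41.9 in PC308-1 and 38.1, 40.8 and 35.9 in PC326-1. PIC144-1 and PIC496-4 stood high and the other IDH1 mutant lines just above the IDH1 WT lines. Aprt averaged 56.7 ± 16.5 FPKM in IDH1 mutant (SD, n = 4 lines) and 38.4 ± 2.20 FPKM in IDH1 WT (SD, n = 3 lines). That is a log2 difference of 0.51 (SE 0.227), or 1.43-fold with a 95% interval of 0.990 to 2.05, with a limma p of 0.0554 that became 0.396 after adjustment.

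Hprt lies on the X chromosome (chrX:52988137-53021659, plus strand). Hprt was measured at 62.4, 74.2 and 62.0 FPKM in the 3 libraries of PIC144-1, 57.8, 60.3 and 54.8 in PIC144-3, 67.8, 63.8 and 67.7 in PIC496-3 and 76.3, 93.6 and 81.95 in PIC496-4. Hprt in the IDH1 WT lines had 39.8, 48.8 and 42.6 FPKM in PC134-0, 70.1, 74.5 and 67.3 in PC308-1 and 44.6, 40.6 and 45.1 in PC326-1. PC308-1 was the second highest line for Hprt, so the genotypes overlapped. Hprt averaged 68.5 ± 11.1 FPKM in IDH1 mutant (SD, n = 4 lines) and 52.6 ± 15.6 FPKM in IDH1 WT (SD, n = 3 lines). The Hprt difference was 0.40 (SE 0.216), or 1.32-fold with a 95% interval of 0.936 to 1.87, with a limma p of 0.0991 that became 0.456 after adjustment. Without PC308-1 the log2 difference of Hprt was 0.63.

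Among the folate genes, Mthfd1l, the mitochondrial formate producer, had the smallest p. Mthfd1l was measured at 33.7, 37.7 and 33.8 FPKM in the 3 libraries of PIC144-1, 31.2, 30.4 and 29.9 in PIC144-3, 52.7, 54.2 and 54.9 in PIC496-3 and 68.3, 74.4 and 68.4 in PIC496-4. Mthfd1l in the IDH1 WT lines had 18.3, 17.2 and 16.3 FPKM in PC134-0, 33.8, 33.7 and 30.2 in PC308-1 and 23.5, 21.4 and 22.9 in PC326-1. Both PIC496 lines lay above all others, and PC308-1 was higher than PIC144-3. Mthfd1l averaged 47.5 ± 18.3 FPKM in IDH1 mutant (SD, n = 4 lines) and 24.2 ± 7.77 FPKM in IDH1 WT (SD, n = 3 lines). Its difference was 0.93 (SE 0.332), or 1.90-fold with a 95% interval of 1.11 to 3.24, with a limma p of 0.0243 that became 0.349 after adjustment. The adjusted p of Mthfd1l ran from 0.0158 to 0.835 over the other fits, under 0.05 only where libraries of a line count as partly separate. The log2 difference of Mthfd1l was 0.48 without both PIC496 lines.

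Mthfd1, the cytosolic enzyme that interconverts folate forms, had the largest log2 difference of the 40 (chr12:76255298-76319803, plus strand). Mthfd1 was measured at 18.1, 18.7 and 19.7 FPKM in the 3 libraries of PIC144-1, 12.01, 11.3 and 11.6 in PIC144-3, 21.4, 24.9 and 21.6 in PIC496-3 and 38.8, 38.5 and 39.0 in PIC496-4. Mthfd1 in the IDH1 WT lines had 7.72, 7.18 and 7.84 FPKM in PC134-0, 18.3, 18.5 and 18.5 in PC308-1 and 8.52, 7.17 and 8.57 in PC326-1. PIC496-4 held the highest level, and PC134-0 and PC326-1 the lowest, while PC308-1 lay close to PIC144-1. Over lines, Mthfd1 was at 23.0 ± 11.5 FPKM in IDH1 mutant (SD, n = 4 lines) and 11.4 ± 6.11 FPKM in IDH1 WT (SD, n = 3 lines). It differed by 0.97 (SE 0.439), or 1.96-fold with a 95% interval of 0.968 to 3.98, with a limma p of 0.0588 that became 0.403 after adjustment. Over the other fits the adjusted p of Mthfd1 ran from 0.0482 to 0.836, under 0.05 only where libraries of a line count as partly separate. The log2 difference of Mthfd1 was 0.49 without both PIC496 lines. Genes within 5 Mb of Mthfd1 also varied between lines, with a median deviation from the 7-line mean (log2) of -0.16 in PIC144-1, 0.00 in PIC144-3, 0.24 in PIC496-3 and 0.33 in PIC496-4, and -0.50 in PC134-0, 0.60 in PC308-1 and -0.57 in PC326-1, and their median difference between genotypes was 0.24. Over 485 other tested genes of chromosome 12 the median deviation was -0.03 in PIC144-1, -0.03 in PIC144-3, 0.24 in PIC496-3 and 0.25 in PIC496-4. It was -0.48 in PC134-0, 0.49 in PC308-1 and -0.48 in PC326-1, and the median difference between genotypes was 0.24. The shift was thus seen over the chromosome as a whole, and its part in the level of Mthfd1 was not tested.

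Shmt2, which splits serine to glycine in mitochondria, was the most abundant folate gene and overlapped between genotypes. Shmt2 was measured at 83.2, 93.4 and 89.6 FPKM in the 3 libraries of PIC144-1, 50.4, 49.6 and 53.2 in PIC144-3, 92.5, 93.0 and 87.8 in PIC496-3 and 132, 116 and 121 in PIC496-4. Shmt2 in the IDH1 WT lines had 79.5, 75.7 and 78.7 FPKM in PC134-0, 67.0, 61.7 and 70.6 in PC308-1 and 107, 113 and 115 in PC326-1. PC326-1 was the second highest line and PIC144-3 the lowest. The Shmt2 means were 88.6 ± 29.5 FPKM in IDH1 mutant (SD, n = 4 lines) and 85.4 ± 23.5 FPKM in IDH1 WT (SD, n = 3 lines), and the 95% interval of the fold of 1.01 spanned 0.615 to 1.67. Shmt1, its cytosolic counterpart, was the least abundant of the list. Shmt1 was measured at 11.1, 14.4 and 13.7 FPKM in the 3 libraries of PIC144-1, 10.1, 10.2 and 10.6 in PIC144-3, 9.41, 11.99 and 9.55 in PIC496-3 and 21.6, 20.9 and 21.5 in PIC496-4. Shmt1 in the IDH1 WT lines had 10.03, 9.17 and 9.31 FPKM in PC134-0, 7.38, 7.29 and 7.23 in PC308-1 and 10.2, 9.05 and 11.1 in PC326-1. PIC496-4 stood apart at the top and PIC144-1 came next, while the means of PIC144-3 and PIC496-3 lay just above that of PC326-1, the highest IDH1 WT line. Mthfd2, the mitochondrial dehydrogenase that is largely absent from adult tissue and common in tumours, had a median Pearson r of 0.88 with the purine de novo genes over the 7 lines. Mthfd2 averaged 53.7, 32.9, 44.6 and 79.6 FPKM in PIC144-1, PIC144-3, PIC496-3 and PIC496-4, against 32.3, 39.0 and 43.7 FPKM in IDH1 WT PC134-0, PC308-1 and PC326-1.

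**Figure D3:**
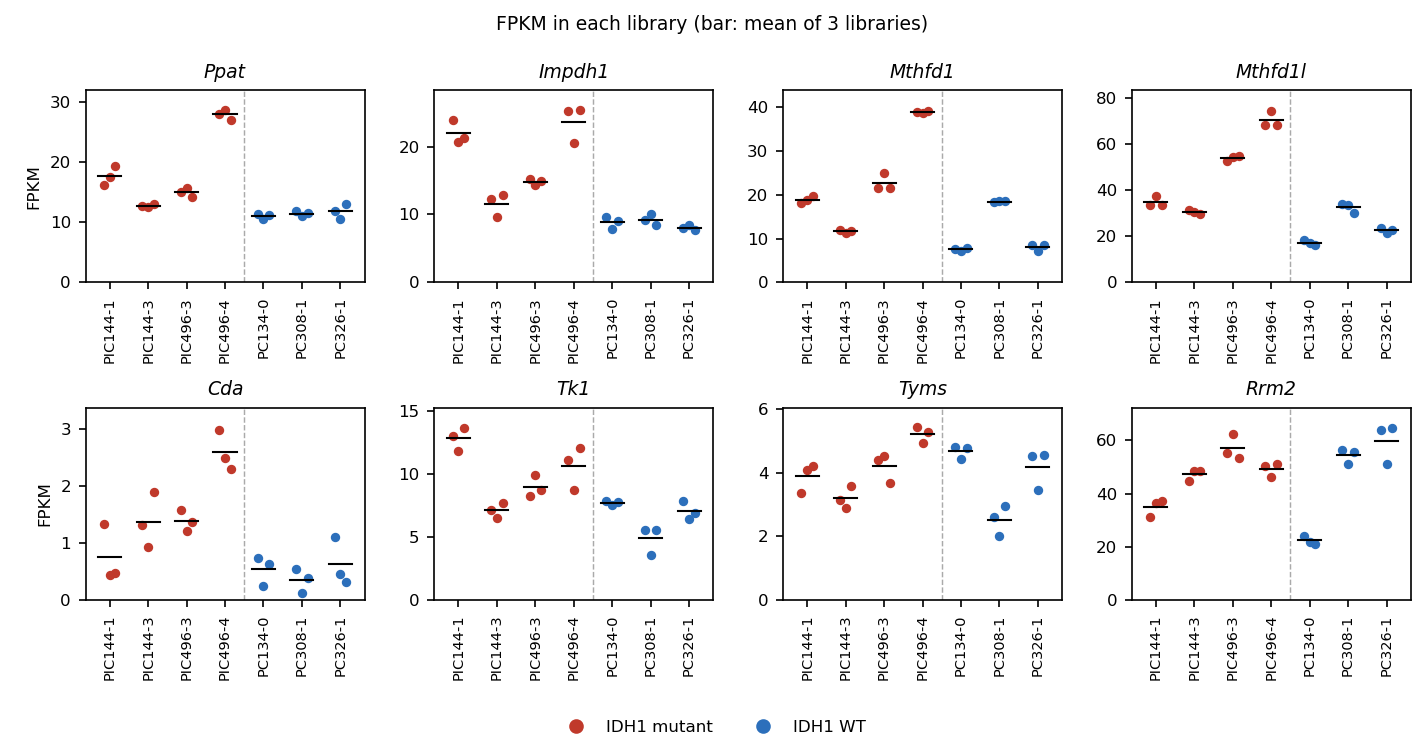
FPKM of 8 of the genes in each library (vertical axes, linear, from 0), with 3 points and their mean as a bar for each line, IDH1 mutant lines left of the dashed line and IDH1 WT lines right of it. Ppat, Impdh1, Mthfd1, Mthfd1l and Cda are highest in PIC496-4, Tk1 in PIC144-1 and Rrm2 in PC326-1.

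Of the pyrimidine de novo genes, Cad, Ctps, Dhodh and Umps had line patterns near those of the purine genes (median Pearson r of 0.93, 0.93, 0.90 and 0.88 with the purine list over 7 lines), while Ctps2 did not (-0.36). Cad, the multi-enzyme protein that opens the pathway, had the smallest p of this list. Cad was measured at 29.0, 32.2 and 34.0 FPKM in the 3 libraries of PIC144-1, 22.4, 23.4 and 23.8 in PIC144-3, 26.4, 28.7 and 27.2 in PIC496-3 and 48.9, 52.4 and 49.3 in PIC496-4. Cad in the IDH1 WT lines had 22.6, 21.7 and 19.3 FPKM in PC134-0, 25.5, 23.6 and 25.1 in PC308-1 and 23.6, 17.3 and 24.3 in PC326-1. PIC496-4 was the highest line by a wide margin and the lower end of the IDH1 mutant lines overlapped the IDH1 WT lines. Cad averaged 33.1 ± 11.9 FPKM in IDH1 mutant (SD, n = 4 lines) and 22.5 ± 1.89 FPKM in IDH1 WT (SD, n = 3 lines). Cad had a difference of 0.49 (SE 0.252), or 1.40-fold with a 95% interval of 0.935 to 2.102, with a limma p of 0.0902 that became 0.441 after adjustment. Without PIC496-4 the log2 difference of Cad was 0.27. Dhodh, which oxidises dihydroorotate in mitochondria, was much lower per length. Dhodh averaged 4.04, 3.78, 4.27 and 6.22 FPKM in PIC144-1, PIC144-3, PIC496-3 and PIC496-4, against 3.53, 4.01 and 3.69 FPKM in IDH1 WT PC134-0, PC308-1 and PC326-1. Umps, which completes UMP, ran from 8.70 to 20.1 FPKM in IDH1 mutant lines and from 9.95 to 10.8 FPKM in IDH1 WT lines.

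CTP synthase is encoded by Ctps and by the X-linked Ctps2, and the paralogs had different line patterns. Ctps was measured at 33.2, 34.7 and 35.7 FPKM in the 3 libraries of PIC144-1, 25.7, 24.3 and 27.5 in PIC144-3, 26.9, 30.1 and 27.0 in PIC496-3 and 50.4, 49.1 and 46.2 in PIC496-4. Ctps in the IDH1 WT lines had 21.8, 24.1 and 22.3 FPKM in PC134-0, 29.6, 26.7 and 29.4 in PC308-1 and 25.4, 21.5 and 27.8 in PC326-1. Ctps had its highest level in PIC496-4. Ctps2 was measured at 7.64, 7.03 and 6.74 FPKM in the 3 libraries of PIC144-1, 2.82, 3.32 and 3.26 in PIC144-3, 2.31, 2.41 and 2.52 in PIC496-3 and 1.44, 1.94 and 1.79 in PIC496-4. Ctps2 in the IDH1 WT lines had 3.42, 3.37 and 3.55 FPKM in PC134-0, 4.26, 4.02 and 3.66 in PC308-1 and 3.48, 3.55 and 3.56 in PC326-1. Ctps2 had its lowest level in PIC496-4 and its highest in PIC144-1, 4.14 times the lowest. Genes within 5 Mb of Ctps2 had median deviations of 0.23 in PIC144-1, -0.02 in PIC144-3, 0.01 in PIC496-3 and -0.02 in PIC496-4, and -0.15 in PC134-0, 0.12 in PC308-1 and -0.19 in PC326-1. The log2 difference of Ctps between PIC496-4 and PIC496-3 was 0.78 (SE 0.0791, adjusted p = 1.28e-07), against -0.40 (SE 0.0837, adjusted p = 0.000598) for Ctps2.

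Dtymk, the kinase that all thymidylate passes through, was highest in PIC144-1. Dtymk was measured at 30.001, 29.3 and 27.4 FPKM in the 3 libraries of PIC144-1, 15.4, 15.3 and 17.0 in PIC144-3, 22.0, 21.7 and 20.7 in PIC496-3 and 25.3, 24.7 and 27.6 in PIC496-4. Dtymk in the IDH1 WT lines had 18.8, 16.3 and 19.0 FPKM in PC134-0, 15.9, 16.2 and 15.6 in PC308-1 and 18.8, 17.8 and 18.4 in PC326-1. PIC144-3 and PC308-1 were the lowest lines and had the same mean level. Dtymk averaged 23.0 ± 5.66 FPKM in IDH1 mutant (SD, n = 4 lines) and 17.4 ± 1.34 FPKM in IDH1 WT (SD, n = 3 lines). Dtymk differed between genotypes by 0.36 (SE 0.209), or 1.29-fold with a 95% interval of 0.919 to 1.80, with a limma p of 0.122 that became 0.485 after adjustment. Tyms, thymidylate synthase, was low per length, at 3.22 to 5.22 FPKM in IDH1 mutant and 2.53 to 4.68 FPKM in IDH1 WT lines. Dut, which removes dUTP, and Dctd, which makes dUMP from dCMP, overlapped between genotypes. Dctd averaged 3.89, 3.33, 4.22 and 8.11 FPKM in PIC144-1, PIC144-3, PIC496-3 and PIC496-4, against 6.07, 3.92 and 5.83 FPKM in IDH1 WT PC134-0, PC308-1 and PC326-1. Dut ran from 13.0 to 23.8 FPKM in IDH1 mutant and from 11.8 to 22.4 FPKM in IDH1 WT lines. Genes within 5 Mb of Dut had a median difference between genotypes of -0.37. Cmpk1, the UMP and CMP kinase, had line means of 19.3 to 28.8 FPKM in IDH1 mutant and 23.3 to 26.2 FPKM in IDH1 WT lines.

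Salvage of pyrimidines showed no common pattern. Cda, cytidine deaminase, was the least abundant gene of this list, with 19 to 142 fragments per line. Cda was measured at 1.34, 0.446 and 0.476 FPKM in the 3 libraries of PIC144-1, 1.31, 0.922 and 1.89 in PIC144-3, 1.57, 1.22 and 1.36 in PIC496-3 and 2.98, 2.49 and 2.31 in PIC496-4. Cda in the IDH1 WT lines had 0.743, 0.244 and 0.628 FPKM in PC134-0, 0.536, 0.114 and 0.383 in PC308-1 and 1.11, 0.456 and 0.309 in PC326-1. PIC496-4 held the highest values, and the libraries of PIC144-1 and of the IDH1 WT lines spread widely within their line. Cda averaged 1.53 ± 0.770 FPKM in IDH1 mutant (SD, n = 4 lines) and 0.503 ± 0.144 FPKM in IDH1 WT (SD, n = 3 lines). Cda had a log2 difference of 0.95 (SE 0.314), or 1.93-fold with a 95% interval of 1.17 to 3.20, with a limma p of 0.0169 that became 0.328 after adjustment. The log2 difference was 1.49 with limma voom and 0.62 without both PIC496 lines. Cytosolic thymidine kinase, Tk1, was highest in PIC144-1. Tk1 was measured at 13.0, 11.8 and 13.6 FPKM in the 3 libraries of PIC144-1, 7.12, 6.50 and 7.67 in PIC144-3, 8.23, 9.91 and 8.74 in PIC496-3 and 11.1, 8.69 and 12.02 in PIC496-4. Tk1 in the IDH1 WT lines had 7.83, 7.52 and 7.73 FPKM in PC134-0, 5.51, 3.59 and 5.58 in PC308-1 and 7.86, 6.41 and 6.86 in PC326-1. The libraries of PIC144-3 overlapped those of PC134-0 and PC326-1. Tk1 averaged 9.87 ± 2.43 FPKM in IDH1 mutant (SD, n = 4 lines) and 6.54 ± 1.46 FPKM in IDH1 WT (SD, n = 3 lines). For Tk1 the difference was 0.55 (SE 0.233), or 1.46-fold with a 95% interval of 1.01 to 2.13, with a limma p of 0.0471 that became 0.385 after adjustment. Genes within 5 Mb of Tk1 had a median deviation of 0.37 in PIC144-1 and of -0.10 to 0.01 in the other lines.

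Tk2, the mitochondrial thymidine kinase, had a median Pearson r of -0.88 with the purine de novo genes over the 7 lines. Tk2 averaged 3.84, 4.45, 3.91 and 2.95 FPKM in PIC144-1, PIC144-3, PIC496-3 and PIC496-4, against 4.54, 4.99 and 5.09 FPKM in IDH1 WT PC134-0, PC308-1 and PC326-1. The mean of each IDH1 mutant line was below that of each IDH1 WT line, and PIC496-4 was the lowest. Its 95% counting intervals overlapped in PIC144-3 (4.16 to 4.75 FPKM) and PC134-0 (4.23 to 4.86 FPKM). Upp1, uridine phosphorylase, was highest in PIC144-3 and lowest in PIC496-4. Upp1 averaged 7.83, 12.5, 7.08 and 3.90 FPKM in PIC144-1, PIC144-3, PIC496-3 and PIC496-4, against 6.65, 4.67 and 4.35 FPKM in IDH1 WT PC134-0, PC308-1 and PC326-1. Dck, deoxycytidine kinase, was the most abundant pyrimidine salvage gene. Dck was measured at 28.1, 27.1 and 28.03 FPKM in the 3 libraries of PIC144-1, 37.1, 37.0 and 38.7 in PIC144-3, 37.3, 37.0 and 38.5 in PIC496-3 and 33.1, 34.0 and 33.3 in PIC496-4. Dck in the IDH1 WT lines had 34.2, 38.7 and 36.4 FPKM in PC134-0, 35.6, 32.1 and 35.04 in PC308-1 and 33.5, 32.3 and 33.4 in PC326-1. PIC144-1 was the lowest line for Dck, PIC144-3 and PIC496-3 were the highest, and the genotypes overlapped. Uck2, a uridine-cytidine kinase often raised in tumours, had high values in the lines that were high for purine genes. Uck2 averaged 40.5, 17.2, 25.1 and 45.7 FPKM in PIC144-1, PIC144-3, PIC496-3 and PIC496-4, against 13.8, 23.7 and 16.9 FPKM in IDH1 WT PC134-0, PC308-1 and PC326-1. Its paralog Uck1 ran from 6.72 to 8.26 FPKM in IDH1 mutant and from 6.18 to 8.68 FPKM in IDH1 WT lines, and 17.5% of its 50-base stretches also occur elsewhere.

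Ribonucleotide reductase turns diphosphates into deoxy forms with the large subunit Rrm1 and a small subunit, Rrm2 in S phase or Rrm2b in resting cells. Rrm1 was measured at 24.2, 28.2 and 27.3 FPKM in the 3 libraries of PIC144-1, 21.6, 22.2 and 22.3 in PIC144-3, 27.6, 28.5 and 26.9 in PIC496-3 and 31.6, 36.5 and 31.3 in PIC496-4. Rrm1 in the IDH1 WT lines had 23.2, 24.4 and 24.1 FPKM in PC134-0, 27.98, 23.9 and 22.0 in PC308-1 and 26.0, 20.98 and 24.7 in PC326-1. Rrm1 was highest in PIC496-4 and lowest in PIC144-3. Rrm1 averaged 27.3 ± 4.57 FPKM in IDH1 mutant (SD, n = 4 lines) and 24.1 ± 0.432 FPKM in IDH1 WT (SD, n = 3 lines). Rrm1 differed by 0.16 (SE 0.154), or 1.12-fold with a 95% interval of 0.873 to 1.43, with a limma p of 0.325 that became 0.658 after adjustment. The log2 difference was 0.07 without PIC496-4 and 0.26 without PIC144-3. Rrm2 was measured at 31.2, 36.3 and 37.2 FPKM in the 3 libraries of PIC144-1, 44.6, 48.3 and 48.6 in PIC144-3, 55.2, 62.3 and 53.4 in PIC496-3 and 50.3, 46.1 and 51.0 in PIC496-4. Rrm2 in the IDH1 WT lines had 24.0, 21.9 and 21.2 FPKM in PC134-0, 56.4, 51.0 and 55.6 in PC308-1 and 63.8, 51.1 and 64.8 in PC326-1. Rrm2 was much lower in PC134-0 than in all other lines, and PC326-1 was the highest. Genes within 5 Mb of Rrm2 had a median deviation of -0.57 in PC134-0 and of -0.03 to 0.31 in the other lines. Over other tested genes of chromosome 12, where Rrm2 lies, it was -0.48 in PC134-0, 0.49 in PC308-1 and -0.48 in PC326-1. The part of these genes in the level of Rrm2 was not tested. Rrm2b ran from 2.95 to 3.58 FPKM in IDH1 mutant and 2.91 to 3.66 FPKM in IDH1 WT lines.

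Nucleoside diphosphate kinase is encoded by the neighbours Nme1 and Nme2 on chromosome 11. Nme1 was measured at 20.4, 19.5 and 21.9 FPKM in the 3 libraries of PIC144-1, 9.65, 8.71 and 10.2 in PIC144-3, 13.4, 13.8 and 12.9 in PIC496-3 and 17.3, 15.4 and 16.2 in PIC496-4. Nme1 in the IDH1 WT lines had 10.1, 10.03 and 10.7 FPKM in PC134-0, 10.1, 8.99 and 11.5 in PC308-1 and 9.54, 7.54 and 9.98 in PC326-1. PIC144-1 was the highest line for Nme1, and PIC144-3 lay among the IDH1 WT lines. Nme1 averaged 14.9 ± 4.68 FPKM in IDH1 mutant (SD, n = 4 lines) and 9.84 ± 0.710 FPKM in IDH1 WT (SD, n = 3 lines). Nme1 had a difference of 0.53 (SE 0.244), or 1.44-fold with a 95% interval of 0.974 to 2.14, with a limma p of 0.0635 that became 0.409 after adjustment. Genes within 5 Mb of Nme1 had a median deviation of 0.33 in PIC144-1. Nme2 was measured at 1.03, 1.13 and 1.32 FPKM in the 3 libraries of PIC144-1, 0.678, 0.255 and 0.636 in PIC144-3, 0.535, 0.493 and 0.262 in PIC496-3 and 0.259, 0.750 and 0.463 in PIC496-4. Nme2 in the IDH1 WT lines had 0.252, 0.270 and 0.648 FPKM in PC134-0, 0.427, 0 and 0.290 in PC308-1 and 0.207, 0.756 and 1.36 in PC326-1. Nme2 passed the filter with 3 lines, and the library listed at 0 held 0 fragments, where 3 fragments would be 0.151 FPKM. The Nme2 values are uncertain, since 48.9% of its exon bases are overlapped on the same strand by the read-through gene Gm20390, which is listed at 0 in all lines, and 22.2% of its 50-base stretches occur at other loci. Same-strand overlap with other genes covers 12.5% of the exon bases of Nme1.

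The second comparison asked how the genes vary between lines. Taking the 3 libraries of a line as replicates, which may differ only technically, a limma F test found all 40 genes to differ between the 7 lines (adjusted p = 3.34e-15 to 0.0350), as did 89.6% of all tested genes. The highest line mean was 1.26 to 7.52 times the lowest. PIC496-4 was the highest line for 28 of 40 genes (70%), where it was highest for 22.2% of all tested genes. By list, PIC496-4 was highest for 11 of 11 purine de novo genes, 2 of 2 purine salvage genes, 5 of 5 folate genes, 7 of 10 pyrimidine de novo genes, 2 of 7 pyrimidine salvage genes and 1 of 5 genes of the shared steps. PIC144-1 was highest for 5 of 40 genes (12.5%, namely Ctps2, Dtymk, Tk1, Nme1 and Nme2), where it was highest for 16.4% of all tested genes.

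Line by line, the median deviation of the purine de novo genes from their 7-line mean (log2) was 0.27 in PIC144-1, -0.19 in PIC144-3, 0.03 in PIC496-3 and 0.68 in PIC496-4, and -0.26 in PC134-0, -0.18 in PC308-1 and -0.29 in PC326-1. For the folate genes it was 0.22 in PIC144-1, -0.41 in PIC144-3, 0.12 in PIC496-3 and 0.91 in PIC496-4, and -0.46 in PC134-0, -0.19 in PC308-1 and -0.13 in PC326-1. Summed over the 11 purine de novo genes, the level was 317, 256, 269 and 435 FPKM in PIC144-1, PIC144-3, PIC496-3 and PIC496-4, against 224, 241 and 233 FPKM in IDH1 WT PC134-0, PC308-1 and PC326-1. Summed over the 5 folate genes it was 209, 136, 223 and 333 FPKM in PIC144-1, PIC144-3, PIC496-3 and PIC496-4, against 145, 164 and 196 FPKM in IDH1 WT PC134-0, PC308-1 and PC326-1. PIC144-3 had the smallest purine sum of the IDH1 mutant lines and a folate sum below that of each IDH1 WT line. A list of 20 S phase and mitosis genes, kept for comparison, had median deviations of 0.04 in PIC144-1, -0.08 in PIC144-3, 0.11 in PIC496-3 and 0.31 in PIC496-4, and -0.11 in PC134-0, -0.29 in PC308-1 and -0.07 in PC326-1, and none of its 20 genes was called between genotypes (median log2 difference 0.27, 17 of 20 positive). The part of cell cycle activity in the levels of the purine and folate genes was not tested.

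**Figure D4:**
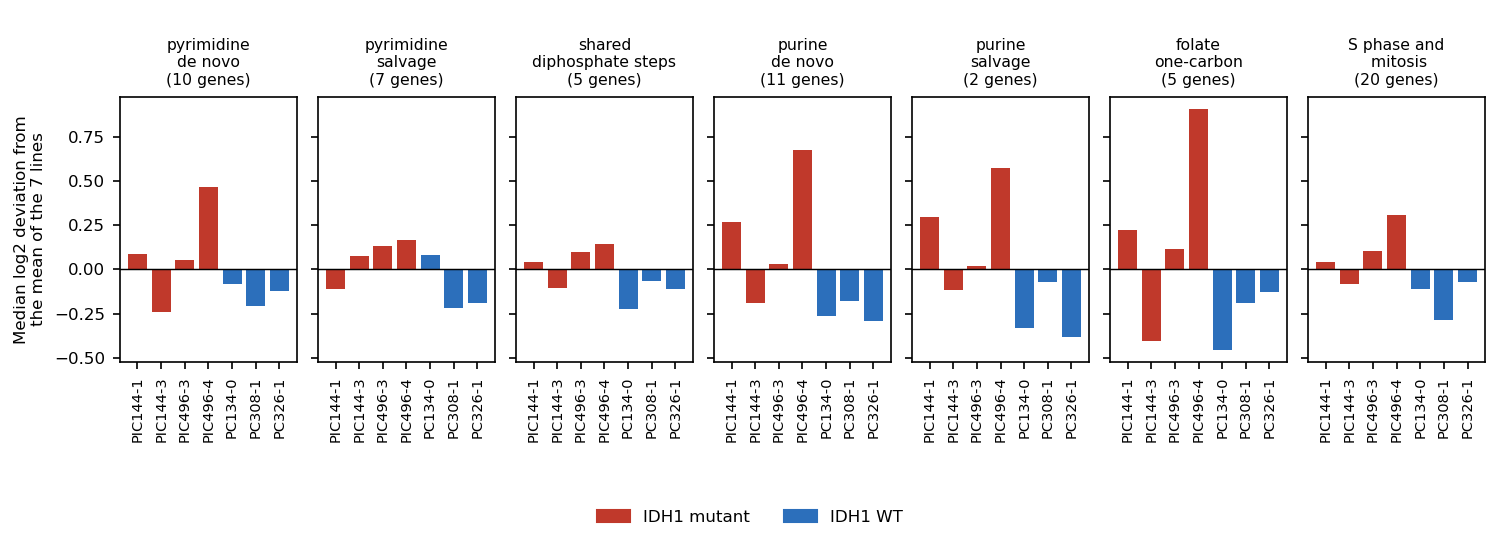
Median deviation of each gene list from the mean of the 7 lines (log2, vertical axis) in each line, with IDH1 mutant lines in red left of IDH1 WT lines in blue. The purine de novo bar of PIC496-4 is 0.68 and its folate bar 0.91, where its bar for S phase and mitosis genes is 0.31.

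Within the IDH1 mutant genotype, lines that share a number were set against each other, comparisons added after the data were seen. Between PIC496-4 and PIC496-3, 29 of 40 genes were higher in PIC496-4 (25.1% of all tested genes) and 4 were lower (26.4%), namely Ctps2, Tk2, Dck and Upp1, with a median log2 difference of 0.46 (all genes 0.00511). All 11 purine de novo genes were higher in PIC496-4 (median 0.77), as were all 5 folate genes (median 0.77). The largest purine difference was that of Prps1, at 1.10 (SE 0.0696, adjusted p = 1.85e-10), then Gart, at 0.96 (SE 0.0885, adjusted p = 3.92e-08), with Shmt1 the largest of the folate genes at 1.02 (SE 0.0937, adjusted p = 3.54e-08). Upp1 was lowest of all, at -0.79 (SE 0.101, adjusted p = 2.59e-06). In the same contrast 8 of 9 tested glioma stem-like identity genes were lower in PIC496-4 (median log2 difference -1.08), and 9 of 20 S phase and mitosis genes were higher and 1 lower. Fibroblast and pericyte markers summed to 2.51 FPKM in PIC496-4 and 1.35 FPKM in PIC496-3. The part of these in the nucleotide genes was not tested.

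Between PIC144-1 and PIC144-3, 25 of 40 genes were higher in PIC144-1 (28.2% of all tested genes) and 5 lower (30.0%), namely Cmpk1, Dck, Upp1, Rrm2 and Impdh2, with a median log2 difference of 0.40. Of the purine de novo genes 9 of 11 were higher, 1 was lower (Impdh2) and Paics did not pass, with a median of 0.56. The 5 folate genes were all higher in PIC144-1 (median 0.67). Uck2 had the largest difference, at 1.21 (SE 0.0518, adjusted p = 7.79e-13), followed by Atic at 1.11 (SE 0.0690, adjusted p = 1.56e-10), Nme1 at 1.08 (SE 0.0949, adjusted p = 1.98e-08) and Ctps2 at 1.07 (SE 0.0837, adjusted p = 3.82e-09). Shmt2 differed by 0.79 (SE 0.0606, adjusted p = 2.98e-09). In the same contrast 11 of 20 S phase and mitosis genes were higher in PIC144-1 and 2 lower (median log2 difference 0.24), and of 9 tested glioma stem-like identity genes 1 was higher and 4 lower (median -0.20). Fibroblast and pericyte markers summed to 15.3 FPKM in PIC144-1 and 1.11 FPKM in PIC144-3, and 1 of the 2 tested was higher, the collagen gene Col3a1, by 2.09 (SE 0.109, adjusted p = 1.42e-11). The part of these in the nucleotide genes was not tested. Ctps2 and Impdh2 thus passed in opposite directions in the 2 pairs, Ctps2 higher in PIC144-1 and lower in PIC496-4, and Impdh2 lower in PIC144-1 and higher in PIC496-4. For 15 of the 40 genes, line medians of genes within 5 Mb spanned more than 0.3 (log2). Near Mthfd2 the median deviation was 0.26 in PIC144-1 and -0.19 in PIC144-3, near Dtymk 0.19 and -0.15, and near Impdh1 0.20 and -0.02. Near Prps1 it was -0.09 in PIC144-1, 0.01 in PIC144-3, -0.15 in PIC496-3 and -0.35 in PIC496-4. The part of neighbouring genes in these levels was not tested.

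**Figure D5:**
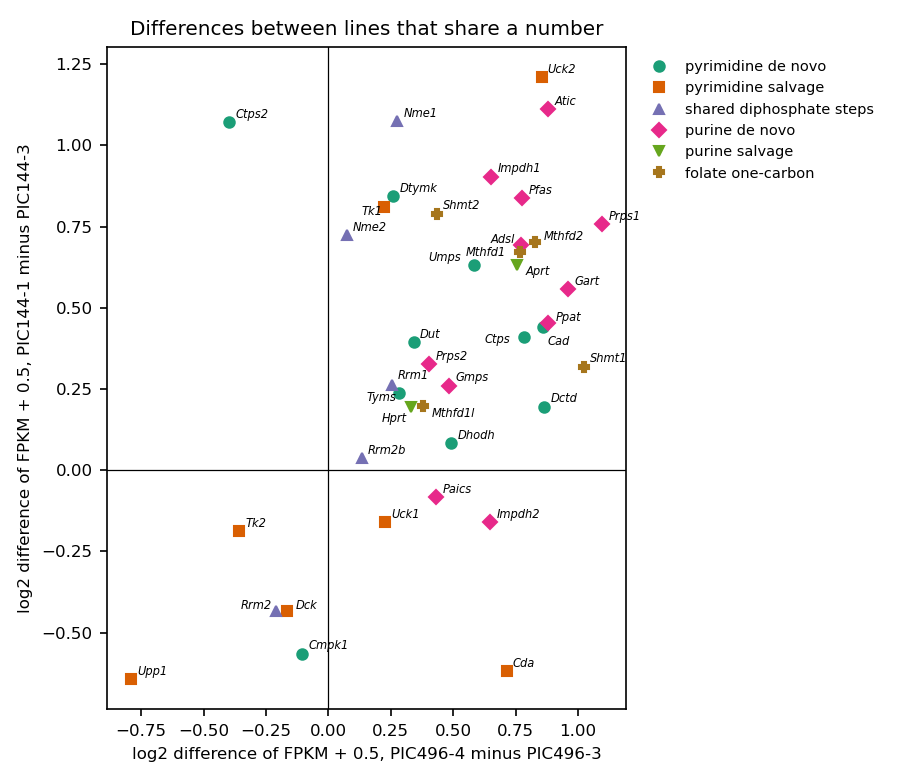
Log2 differences of FPKM + 0.5 for each of the 40 genes, PIC496-4 minus PIC496-3 (horizontal) and PIC144-1 minus PIC144-3 (vertical), 3 libraries per line, coloured by role. Purine de novo and folate genes lie right of the vertical zero line without exception, Upp1 lies lowest on both axes and Ctps2 and Cda lie in opposite corners.

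Likeness across the 7 lines was described with Pearson's r of log2 values, over line means that share their libraries. The median r over the 780 pairs of the 40 genes was 0.51. Within purine de novo synthesis it was 0.88 over 55 pairs (0.55 to 0.99), and within the folate genes 0.70 over 10 pairs. It was 0.41 within pyrimidine de novo synthesis, 0.12 within pyrimidine salvage and 0.12 within the shared steps. PIC496-4 was the highest line for all 11 purine de novo and all 5 folate genes, and r was not computed without it. No r over all tested genes was computed to set beside these values. In all, 11 genes outside the purine list had a median r over 0.8 with it, led by Cad (0.93), Ctps (0.93), Aprt (0.92), Uck2 (0.90) and Dhodh (0.90). Rrm2 (0.06), Upp1 (-0.32), Ctps2 (-0.36), Dck (-0.37) and Tk2 (-0.88) stood at the other end. Rrm1 and Rrm2, subunits of the same enzyme, had an r of 0.16.

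Further genes of the same pathways were taken from 5 more lists, and none of their 54 tested genes was called between genotypes. In other purine interconversion 16 of 18 genes were tested and 13 were positive (median log2 difference 0.21). Adk, adenosine kinase, was at 9.83 ± 3.31 FPKM in IDH1 mutant (SD, n = 4 lines) and 5.37 ± 0.115 FPKM in IDH1 WT (SD, n = 3 lines), a log2 difference of 0.76 (SE 0.249, limma adjusted p = 0.328). Ak1, an adenylate kinase, was at 2.94 ± 1.30 FPKM in IDH1 mutant (SD, n = 4 lines) and 1.203 ± 0.341 FPKM in IDH1 WT (SD, n = 3 lines), a log2 difference of 0.95 (SE 0.330, limma adjusted p = 0.342). Of nucleotide breakdown and pool control 12 of 19 genes were tested and 7 were positive (median 0.11), with the smallest p for Gda, guanine deaminase, at 1.26 ± 0.880 FPKM in IDH1 mutant (SD, n = 4 lines) and 0.305 ± 0.259 FPKM in IDH1 WT (SD, n = 3 lines), a log2 difference of 1.02 (SE 0.445, limma adjusted p = 0.393), and next for the nucleotidase Nt5c, with 32.2 FPKM in IDH1 mutant and 24.2 FPKM in IDH1 WT lines.

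Other folate enzymes and carriers had 13 of 17 genes tested and 7 positive (median 0.02). Mtfmt, which formylates mitochondrial initiator tRNA, was at 2.47 ± 0.260 FPKM in IDH1 mutant (SD, n = 4 lines) and 1.88 ± 0.0603 FPKM in IDH1 WT (SD, n = 3 lines), a log2 difference of 0.31 (SE 0.161, limma adjusted p = 0.441). Ggh, which trims folate polyglutamates, was at 13.8 ± 4.40 FPKM in IDH1 mutant (SD, n = 4 lines) and 18.3 ± 2.17 FPKM in IDH1 WT (SD, n = 3 lines), a log2 difference of -0.45 (SE 0.258, limma adjusted p = 0.483). All 9 genes of serine and glycine supply were tested and 6 were positive (median 0.10). The glutamine carrier Slc1a5 was at 14.3 ± 10.2 FPKM in IDH1 mutant (SD, n = 4 lines) and 6.18 ± 2.64 FPKM in IDH1 WT (SD, n = 3 lines), a log2 difference of 0.97 (SE 0.526, limma adjusted p = 0.462), with its highest level, 28.5 FPKM, in PIC496-4, and Slc1a4 was at 56.0 ± 6.89 FPKM in IDH1 mutant (SD, n = 4 lines) and 68.6 ± 10.7 FPKM in IDH1 WT (SD, n = 3 lines), a log2 difference of -0.29 (SE 0.160, limma adjusted p = 0.475). Of nucleoside transporters 4 of 7 were tested and 1 was positive (median -0.21). Slc29a1, the main equilibrative carrier, was at 27.1 ± 4.13 FPKM in IDH1 mutant (SD, n = 4 lines) and 18.9 ± 4.56 FPKM in IDH1 WT (SD, n = 3 lines), a log2 difference of 0.52 (SE 0.193, limma adjusted p = 0.359). Slc29a3 was at 4.29 ± 0.350 FPKM in IDH1 mutant (SD, n = 4 lines) and 5.49 ± 0.357 FPKM in IDH1 WT (SD, n = 3 lines), a log2 difference of -0.33 (SE 0.137, limma adjusted p = 0.383).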

How the data were processed

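Messenger RNA of 21 libraries from 7 mouse glioma stem-like lines was analysed. The deposited values are FPKM per gene, made by the authors. The tool was HISAT2 and the build mm39, per the submitters' processing notes, but all 40 genes have their GRCm38 coordinates in the table, and those are used. Counter, annotation and strand setting: not given in the sources used here. Whole fragments recovered from the FPKM came out whole for 100% of low values (tolerance 0.05 fragments), giving 15011668 to 21966351 per library. The number of fragments limits the precision of single values, and counting intervals cover counting error only. Precision of the genotype differences also rests on the spread between lines.

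Genotypes were compared with limma 3.58.1 in R 4.3.3 (lmFit, then eBayes, trend and robust options on) for log2(line-mean FPKM + 0.5) of 13379 genes with at least 0.5 FPKM in 3 or more lines, at a Benjamini-Hochberg adjusted p under 0.05. Fold changes are on that scale, which understates changes of low genes. Lines were compared with limma on the 21 libraries. Where nothing says that libraries or lines came from separate animals, p-values measure only the spread between these samples. Tests were named for genes with an unadjusted p under 0.05 and the 2 with the smallest p in each role list. Library values were also given for the highest and lowest gene of each list. Members and lists were chosen with earlier results of these data known. The limma fit was tested on simulated data. Other pseudocounts, filters, scalings, models and left-out lines or replicates were tried. Figures were drawn with matplotlib 3.10.9.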

Additional observations from a re-analysis of the deposited data

Results flagged for a closer look

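In 2 of the 40 genes 1 IDH1 mutant line stood apart from the other IDH1 mutant lines by Dixon's criterion for 4 values, where chance marks about 1 in 20 genes. Impdh2 was at 83.2 FPKM in PIC496-4, with 47.9 to 53.6 FPKM in the other IDH1 mutant lines and 40.7 to 49.95 FPKM in IDH1 WT lines. Nme2 was at 1.16 FPKM in PIC144-1, with 0.430 to 0.523 FPKM in the other IDH1 mutant lines and 0.239 to 0.775 FPKM in IDH1 WT lines. Both genes share sequence with other loci, Impdh2 with a pseudogene and Nme2 most with Gm7730, Gm5566 and Gm5425. A read-through gene also overlaps Nme2 on the same strand. The part of these in the values of Impdh2 and Nme2 was not tested.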

How the results depend on the processing

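The count of genes called between genotypes, 16 in the fit reported, was 3 without a filter, 8 with a mean FPKM of at least 2, 6 with lines sharing a number averaged, 4 without both PIC496 lines and 0 with limma voom (1643 genes under an unadjusted p of 0.05). It ranged from 0 to 29 when 1 line or replicate was left out, with 0 without PC134-0 or without PC326-1 (693 and 923 genes under an unadjusted 0.05), 9 without PIC144-1, 10 without PIC496-3, 5 without PIC496-4 and 29 without PC308-1. Fits over 21 libraries with the line as a random effect called 552 genes and 3 of the 40 (Impdh1, Mthfd1 and Mthfd1l), and adding the replicate number as a block gave 440 genes and 2 of the 40 (Impdh1 and Mthfd1l), and the causes were not tested. These fits count 3 libraries of a line as partly separate, and in all other fits, including each left-out line (range 0 to 0), 0 of the 40 passed. Of same-numbered pairs of libraries across lines, 14 of 63 had a correlation over 0.1 (mean 0.0298, highest 0.292). Of pairs of different number, 10 of 126 did (mean -0.0148, highest 0.207). Whether libraries of the same replicate number share a batch was not tested. Of 287 values of the 12 tested genes under 24 alternatives, 282 kept their direction and side of the threshold, and none reversed.

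The median log2 difference of the 40 ranged from 0.21 to 0.50 with 1 line or replicate left out. That of pyrimidine salvage was 0.24 with the stricter filter and 0.21 without PIC144-3, and that of the shared steps 0.28 without PC326-1 and 0.00277 without both PIC496 lines. Genes lower in PIC496-4 than in PIC496-3 numbered 2 to 3 with a replicate left out (2 without replicate 3), those higher 24 to 29, and those higher in PIC144-1 than in PIC144-3 20 to 25. PIC496-4 was highest for 27 to 29 genes with a replicate left out and 25 on the TPM scale. Low fragment numbers limit Cda and Nme2 most.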
